A study of Mus musculus with 12 samples.

Results

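The genes described here serve protein folding in the endoplasmic reticulum (ER) and the stress responses that adjust it, in the proximal jejunum of mice given the antifolate methotrexate (MTX). The list held 34 genes, chosen by name: sensors and transcription factors of the unfolded protein response, targets of the integrated stress response, ER chaperones, disulphide isomerases, genes of ER-associated degradation and subunits of the translocon. Of these 34, 32 had a probe set paired with 1 gene symbol and were measured, among 18820 genes in all. Ddit3, which encodes the transcription factor CHOP, and Pdia4, a disulphide isomerase, were read only by probe sets paired with several symbols and were not analysed here. RNA was hybridised to 12 Affymetrix arrays, 1 for each mouse, in 4 groups of 3 mice: TLR2 knockout (KO) with MTX, untreated KO, wild type (WT) with MTX and untreated WT. KO mice were of the strain B6.129-Tlr2tm1Kir/J, which carries a targeted allele of the bacterial lipoprotein receptor gene Tlr2 in all cells, and WT mice were C57BL6/J. The labels do not say whether the mice were littermates, so strain background and the targeted allele cannot be told apart. MTX was injected into the peritoneum at 40 mg per kg daily on 4 days and the tissue was taken on day 7, while neither an injection nor a day is recorded for untreated mice, so MTX, injection and day of sampling cannot be told apart. The study asked whether intestinal mucositis, the gut injury caused by chemotherapy, differs without TLR2.

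Secretory and membrane proteins enter the ER through the Sec61 translocon and fold there with the help of chaperones such as BiP (Hspa5) and of disulphide isomerases. Unfolded proteins activate 3 membrane sensors, IRE1 (Ern1, and Ern2 in mucosal epithelia), PERK (Eif2ak3) and ATF6, and through the factors XBP1, ATF6 and ATF4 these raise transcription of chaperones, of degradation genes and of amino acid metabolism genes. ATF4 is also raised by other kinases that phosphorylate the translation factor eIF2, a common pathway called the integrated stress response. In the intestine this machinery is most active in secretory cells such as goblet, Paneth and plasma cells, and the acinar cells of the pancreas, the neighbouring organ, are especially rich in it.

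Promoter sequences of the members were searched for elements of these responses. RefSeq start sites of assembly GRCm38.p6 gave the 250 bases before the start for 28 of the 34 listed genes. The ER stress response element ERSE, spelled CCAAT, 9 bases of any kind and CCACG, was searched on both strands. It lay in 9 of the 28 member promoters (32.1%) and in 35 of the promoters of 27025 genes (0.13%). The element and the members were both chosen for their part in these responses, so this contrast is no independent support. Only exact matches were counted. Those 9 were Hspa5, Hsp90b1, Calr, Canx, Dnajc3, Creld2, Pdia6, Syvn1 and Derl3, and Hsp90b1 held 2 copies. Shown are 5 of them: Hspa5, Creld2, Pdia6 and Derl3, whose signals are given further on, and Hsp90b1 for its 2 copies, with both ends of the element in capitals and each sequence read toward the gene's start.
Hspa5 (chr2:34771840-34772089, plus strand): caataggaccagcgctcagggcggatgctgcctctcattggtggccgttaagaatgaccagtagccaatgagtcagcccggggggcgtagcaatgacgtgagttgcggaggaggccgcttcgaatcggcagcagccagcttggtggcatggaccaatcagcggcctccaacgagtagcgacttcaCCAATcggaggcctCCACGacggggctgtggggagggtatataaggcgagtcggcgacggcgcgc
Hsp90b1 (chr10:86705445-86705694, minus strand): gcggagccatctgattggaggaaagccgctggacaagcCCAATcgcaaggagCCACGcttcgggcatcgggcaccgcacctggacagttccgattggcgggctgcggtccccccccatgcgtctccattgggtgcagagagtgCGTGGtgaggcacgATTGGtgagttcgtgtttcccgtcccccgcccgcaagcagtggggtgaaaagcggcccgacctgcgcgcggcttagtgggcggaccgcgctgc
Creld2 (chr15:88819396-88819645, plus strand): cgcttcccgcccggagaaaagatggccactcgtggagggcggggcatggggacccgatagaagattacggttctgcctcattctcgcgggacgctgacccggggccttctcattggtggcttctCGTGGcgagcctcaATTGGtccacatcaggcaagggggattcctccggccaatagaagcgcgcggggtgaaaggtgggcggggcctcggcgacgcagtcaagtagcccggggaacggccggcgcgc
Pdia6 (chr12:17266339-17266588, plus strand): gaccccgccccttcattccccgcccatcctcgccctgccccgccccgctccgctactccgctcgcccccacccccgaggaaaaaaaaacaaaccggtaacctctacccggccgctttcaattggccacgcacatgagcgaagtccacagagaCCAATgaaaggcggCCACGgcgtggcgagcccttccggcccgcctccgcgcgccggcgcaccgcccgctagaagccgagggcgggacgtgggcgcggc
Derl3 (chr10:75893148-75893397, plus strand): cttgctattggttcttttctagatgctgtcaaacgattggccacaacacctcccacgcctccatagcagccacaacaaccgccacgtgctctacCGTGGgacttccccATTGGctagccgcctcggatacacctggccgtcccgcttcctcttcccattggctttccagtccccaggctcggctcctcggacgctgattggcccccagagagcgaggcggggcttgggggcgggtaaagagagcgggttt

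The shorter element ERSE-II (ATTGG, any base, CCACG) lay in 1 member promoter, that of Herpud1, and in 10 of the 27025 genes (0.037%). The amino acid response element CARE (TGATGCAA), to which ATF4 binds with a partner, lay in the promoters of Atf3, Chac1 and Herpud1 (3 of 28, 10.7%) and of 248 genes in all (0.918%). In these 3 promoters it stood on the opposite strand, as TTGCATCA. The element UPRE (TGACGTGG) lay in 0 of 28 member promoters and in 0.603% of all genes. No match of 1 element overlapped a match of another. The next 3 promoters are shown because their genes belong to the integrated stress response or, in Herpud1, hold elements of both kinds, in capitals.
Herpud1 (chr8:94386179-94386428, plus strand): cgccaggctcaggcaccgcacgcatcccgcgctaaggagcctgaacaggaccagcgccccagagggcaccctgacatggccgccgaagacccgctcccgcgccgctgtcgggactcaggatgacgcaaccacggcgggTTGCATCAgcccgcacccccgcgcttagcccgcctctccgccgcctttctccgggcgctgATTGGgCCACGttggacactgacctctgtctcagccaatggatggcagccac
Chac1 (chr2:119350992-119351241, plus strand): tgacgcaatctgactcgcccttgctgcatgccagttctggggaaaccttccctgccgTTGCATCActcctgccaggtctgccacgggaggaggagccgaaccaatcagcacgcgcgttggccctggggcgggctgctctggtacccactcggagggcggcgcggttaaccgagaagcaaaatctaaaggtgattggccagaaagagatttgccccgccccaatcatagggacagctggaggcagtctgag
Atf3 (chr1:191183334-191183583, minus strand): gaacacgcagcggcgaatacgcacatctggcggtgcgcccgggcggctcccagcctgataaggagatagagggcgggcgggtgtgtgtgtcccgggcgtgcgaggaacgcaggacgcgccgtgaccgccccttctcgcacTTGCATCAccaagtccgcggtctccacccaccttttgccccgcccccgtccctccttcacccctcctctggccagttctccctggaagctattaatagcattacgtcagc

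**Figure D1:**
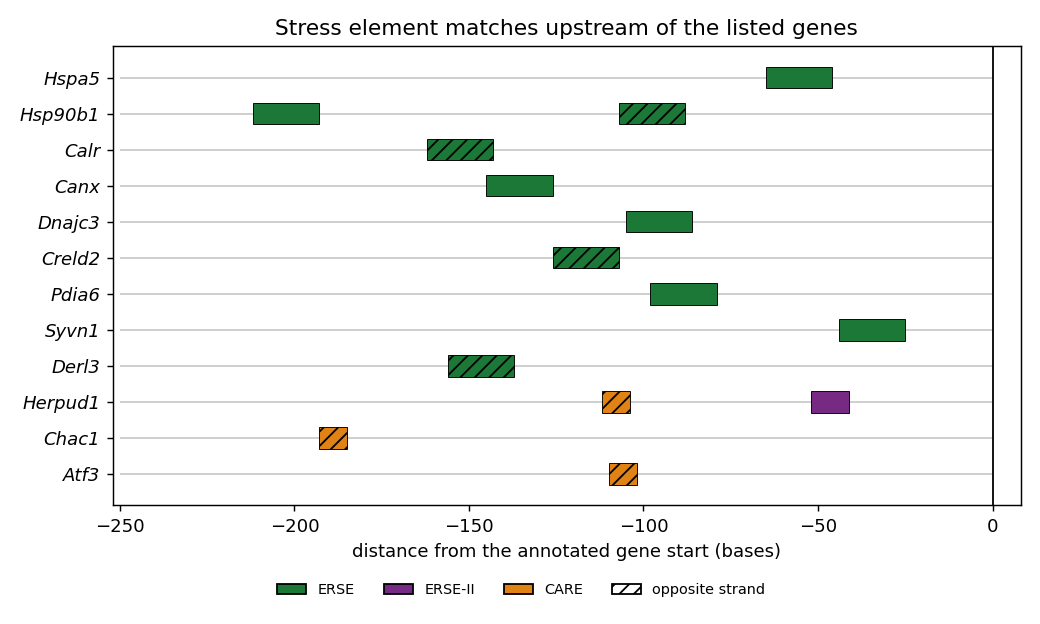
Positions of the 4 searched elements in the 250 bases before the RefSeq start of the member genes that hold 1, in bases from the start (x axis), with 1 line for each gene and 1 bar for each match, hatched where it is on the opposite strand. ERSE matches stood in 9 genes between positions -212 and -26, those of CARE in Atf3, Chac1 and Herpud1, and UPRE had 0.

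The arrays differed in ways that bear on these genes. RNA of the pancreas was present in 7 of the 12 arrays, by a mean log2 signal of 11 measured acinar cell markers above 8. That mean was at least 11.76 in these arrays and at most 5.18 in the other 5. By group, it was 3.64, 12.41 and 12.48 in KO mice with MTX and 5.18, 12.40 and 12.46 in untreated KO mice. In WT mice with MTX it was 5.10, 11.76 and 4.26, and in untreated WT mice 4.50, 12.24 and 12.23. Pancreatic RNA was thus in 2 of 3 arrays of every group except WT with MTX, where it was in 1 of 3. All 10 markers of absorptive enterocytes fell with MTX in KO mice, with a median log2 change of -3.76. Their mean signal was 6.11, 7.33 and 8.24 in KO mice with MTX, against 11.28 to 11.74 in the 9 other arrays. All 6 fibroblast and all 6 macrophage markers rose, with medians of 2.01 and 2.19. In these bulk samples fewer cells of a type and less RNA per cell cannot be told apart. Tlr2 itself read 6.18, 5.46 and 5.28 in KO mice with MTX, 4.36, 5.02 and 5.01 in untreated KO mice, 4.49, 4.65 and 4.51 in WT mice with MTX and 4.37, 4.65 and 4.38 in untreated WT mice. It was not lower in arrays labelled KO, and since the place of the probe set on the altered gene is unknown, genotypes are given as labelled.

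Pancreatic RNA moved with the members' signals. With a term for it in the limma fit, 26 of the 32 members were higher and 6 lower in arrays that held it, with a median log2 difference of 0.23, against -0.01 over all genes. The largest difference was that of Derl3, a degradation gene of secretory cells, at 2.80 ± 0.22 (standard error). Chac1, which degrades glutathione, and Asns, asparagine synthetase, followed at 1.5 ± 0.28 and 1.45 ± 0.21. Sel1l, the adaptor of the degradation ligase, differed by 1.24 ± 0.22 and Herpud1, another part of that complex, by 0.79 ± 0.19. Comparisons between groups are therefore given for all 12 arrays, with the pancreatic term, and within arrays with and without pancreatic RNA where the values differ. The within-array values rest on few mice: for KO mice, 2 with MTX against 2 untreated held pancreatic RNA, and 1 against 1 did not.

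In KO mice MTX was followed by a rise of 1 member and a fall of 4, in limma's fit of all 4 groups (adjusted p under 0.05, Benjamini-Hochberg over 18820 genes). Atf4 rose, and the stress factor gene Atf3, the co-chaperone gene Dnajb9 and the degradation genes Edem1 and Derl1 fell. These 5 of 32 members (15.6%) compare with 34.8% of all genes called, 18.8% higher and 16% lower. The median log2 change of the members was -0.07, beside -0.02 over all genes, and the median size of change was 0.20, beside 0.28. With the pancreatic term 6 members were called, beside 37% of all genes: the same 5 and Derl3, at -1.10 ± 0.29 (adjusted p = 0.0117). With the replicate number as a block, 4 of the 5 were called, beside 34.3% of all genes, and Atf4 was not (adjusted p = 0.0537). Centring the arrays on their median moved the median of all genes to -0.19 and gave 0 members higher and 5 lower, beside 36.8% of all genes called. Leaving out single arrays gave 2 to 6 members, beside 29.4% to 35.3% of all genes. The lowest count, 2, came without replicate 2 of untreated KO (29.4%). There were 3 without replicate 3 of KO with MTX (32.8%) or replicate 3 of untreated KO (30.2%).

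**Figure D2:**
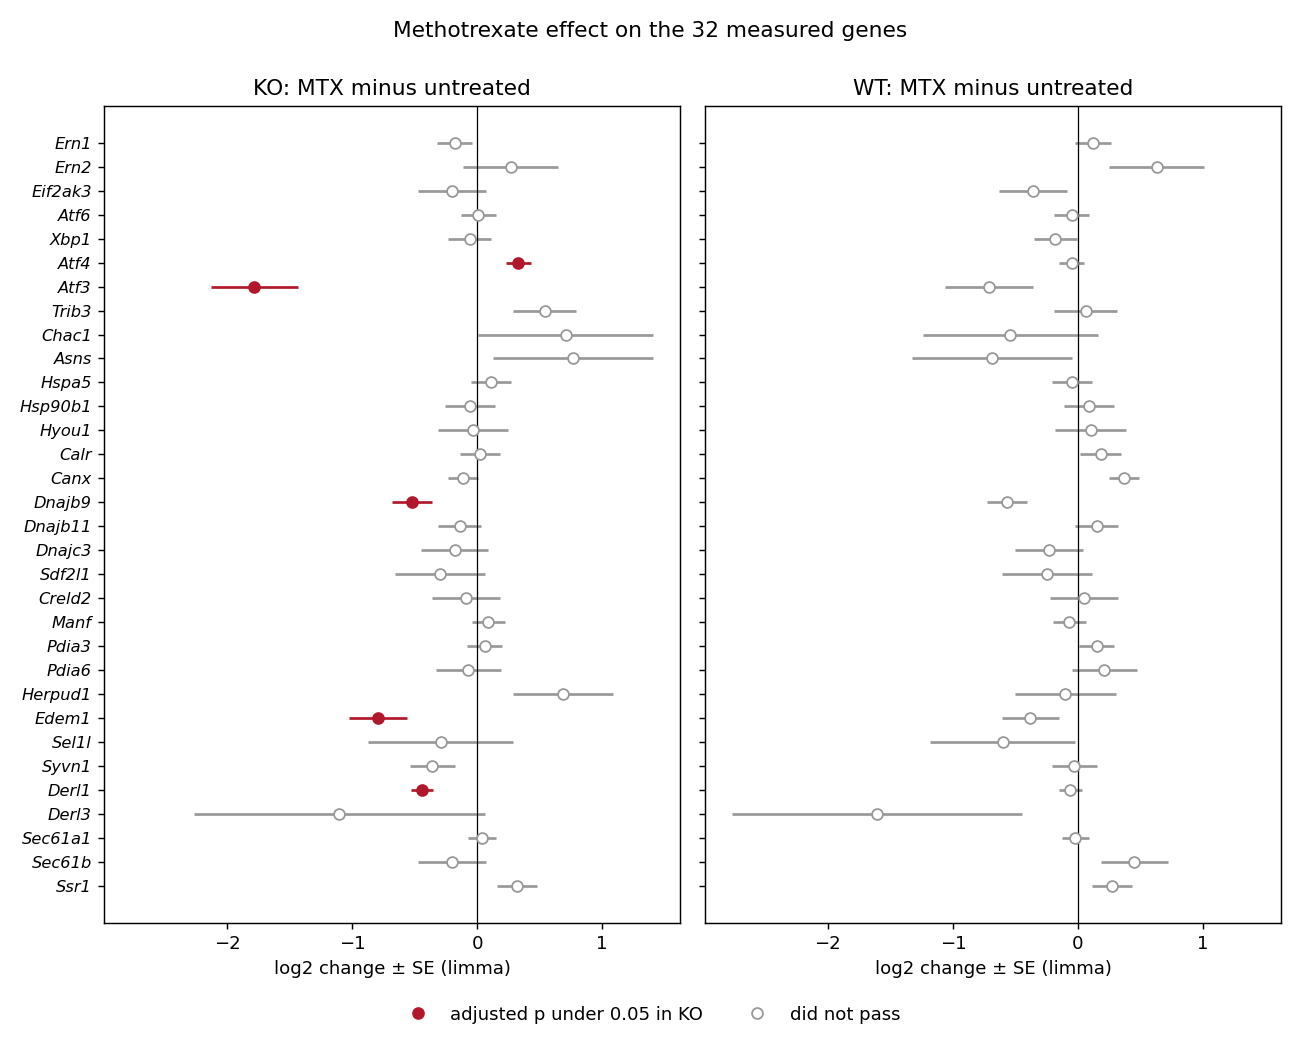
Log2 change with MTX (x axis, with standard error bars from limma) for each of the 32 members, in KO and in WT mice. In KO mice 5 members passed the test, with Atf3 at -1.78 the farthest from 0, and in WT mice 0 passed.

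The transcription factor genes moved in opposite directions. Atf4, the effector of the integrated stress response, read 7.12, 6.98 and 7.11 in KO mice with MTX, against 6.59, 6.73 and 6.91 in untreated KO mice, and the groups did not overlap. Its change was 0.33 ± 0.10 (limma, adjusted p = 0.0304), with all 3 treated arrays above all 3 untreated ones. This call was lost with quantile normalisation (adjusted p = 0.0739), with centring (0.15, adjusted p = 0.381), in a fit of the 2 groups alone (adjusted p = 0.0914) and with a trended robust variance (adjusted p = 0.0627). It was also lost within arrays with pancreatic RNA (0.23, adjusted p = 0.208), and the lone arrays without it differed by 0.53. Leaving out 1 of 4 arrays ended it too: replicate 1 or 3 of KO with MTX (adjusted p = 0.0737 and 0.0794) or replicate 1 or 2 of untreated KO (adjusted p = 0.107 and 0.0792).

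Atf3, a stress-induced factor downstream of ATF4 and of many other signals, had the largest change of the members in KO mice. Its signal was 6.05, 6.52 and 7.13 in KO mice with MTX, against 8.82, 8.0 and 8.22 in untreated KO mice. The highest treated array lay below the lowest untreated one. Atf3 fell by 1.78 ± 0.35 on the log2 scale (limma, adjusted p = 0.00183), and its call was kept in every alternative with more than 1 array on both sides, within arrays with pancreatic RNA included (-1.29, adjusted p = 0.000967). The lone KO arrays without pancreatic RNA differed by -2.78. In WT mice Atf3 read 6.56, 6.23 and 7.55 with MTX, against 7.58, 7.45 and 7.44 untreated, and replicate 3 with MTX lay within the untreated range. Its change there was -0.71 ± 0.35 (adjusted p = 0.451), and the difference between the genotypes' changes was -1.08 ± 0.49 (adjusted p = 0.152). Untreated KO arrays were above untreated WT arrays, by 0.86 ± 0.35 (adjusted p = 0.786).

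The sensors and Xbp1 did not pass the test for MTX in either genotype in the fit of all 4 groups. Eif2ak3 between the genotypes after MTX is given further on. Xbp1, whose messenger is spliced by IRE1, read 10.50, 10.88 and 10.77 in KO mice with MTX and 10.40, 10.90 and 11.05 in untreated KO mice. In WT mice it read 10.28, 10.44 and 10.36 with MTX and 10.35, 10.60 and 10.67 untreated. Treated and untreated arrays overlapped in both genotypes, with changes of -0.06 ± 0.17 in KO (adjusted p = 0.814) and -0.18 ± 0.17 in WT (adjusted p = 0.660). After MTX, Xbp1 was 0.36 ± 0.17 higher in KO than in WT mice (adjusted p = 0.123), and its splicing was not analysed here. Changes in KO mice were -0.18 ± 0.14 for Ern1, 0.27 ± 0.38 for Ern2, -0.20 ± 0.27 for Eif2ak3 and 0.01 ± 0.14 for Atf6.

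Of the targets of the integrated stress response, Asns and Chac1 differed between the genotypes after MTX, and neither passed for MTX against no treatment. Asns read 10.21, 10.61 and 10.63 in KO mice with MTX and 8.32, 10.29 and 10.54 in untreated KO mice. In WT mice it read 7.88, 9.42 and 8.10 with MTX and 7.93, 9.76 and 9.79 untreated. All KO arrays with MTX were above all WT arrays with MTX, while within KO the 2 untreated arrays with pancreatic RNA lay inside the treated range. Chac1 read 5.45, 7.33 and 7.62 in KO mice with MTX and 4.48, 6.39 and 7.40 in untreated KO mice. Its signal was 4.30, 4.96 and 4.61 in WT mice with MTX and 4.47, 5.64 and 5.39 in untreated WT mice. Again the KO arrays with MTX were above every WT array with MTX, and in each group the lowest Chac1 signal came from an array without pancreatic RNA.

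In the change with MTX in KO mice, Asns (0.77 ± 0.64, adjusted p = 0.407) and Chac1 (0.71 ± 0.70, adjusted p = 0.493) did not pass. Within the arrays without pancreatic RNA, 1 against 1, Asns differed by 1.89 and Chac1 by 0.97, and within those that held it by 0.20 and 0.58. Trib3, a pseudokinase induced by ATF4, changed by 0.54 ± 0.25 (adjusted p = 0.119). It was the member with opposite signs in the other order, at -0.31 without pancreatic RNA and 0.97 with it.

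**Figure D3:**
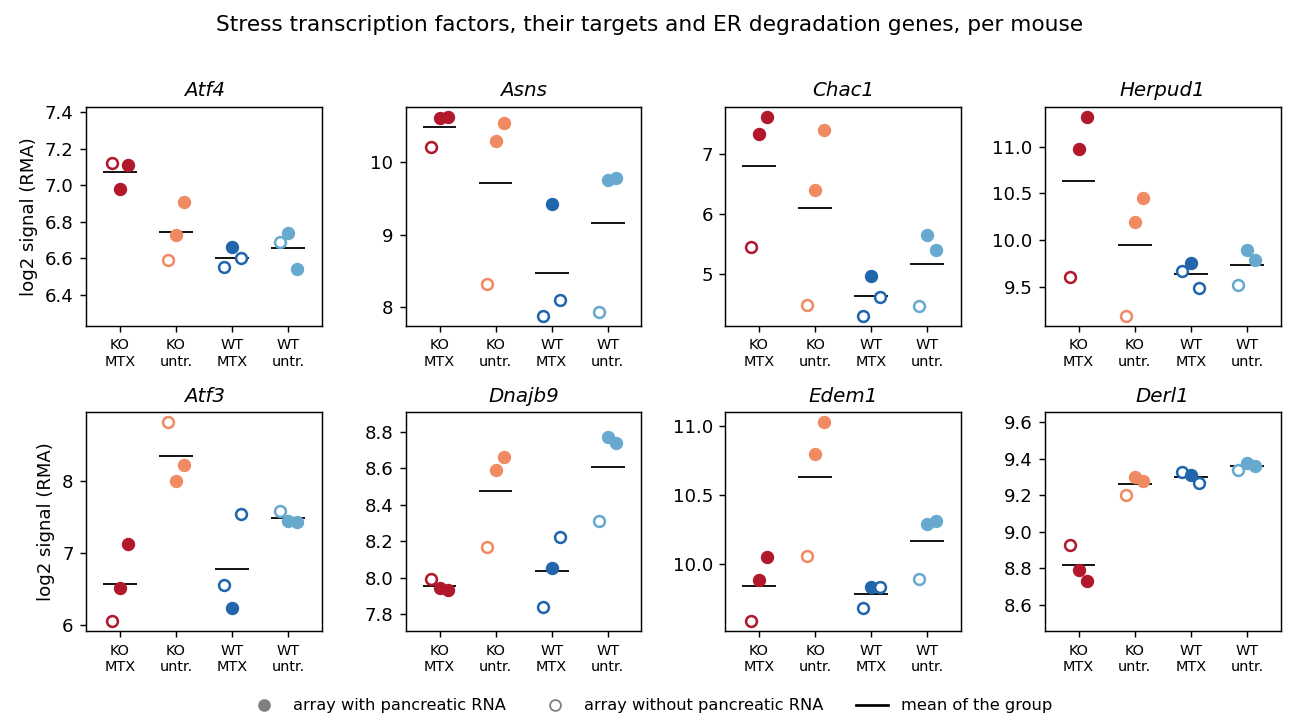
RMA log2 signal (y axis) of 8 stress factor, target and degradation genes in every mouse, in the order KO with MTX, untreated KO, WT with MTX, untreated WT. Filled points are arrays with pancreatic RNA, open points those without, and lines are group means. Atf4 was above every other group's arrays in KO with MTX, and Atf3 was highest in untreated KO.

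Of 11 genes for chaperones, co-chaperones and stress-secreted factors, 1 passed the test for MTX in KO mice when all arrays were taken, beside 34.8% of all genes. In 9 of the 11 the difference had opposite signs in the arrays with and without pancreatic RNA, while Canx and Dnajb9 were below 0 in both. Within the 2 against 2 arrays that held pancreatic RNA, 0 of the 11 were above 0, with a median difference of -0.47. Within the 1 against 1 arrays that did not, 9 of the 11 were above 0, with a median of 0.51. Over all 32 members, 6 were above 0 with pancreatic RNA (median -0.18) and 21 without it (median 0.39), and 16 were above 0 without and below 0 with. The difference between these kinds of array was not tested, and 1 mouse in each group stands for the arrays without pancreatic RNA. The treated mouse without it also had the lowest enterocyte marker mean of its group (6.11, against 7.33 and 8.24). Pancreatic RNA and enterocyte loss therefore cannot be told apart here.

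Hspa5, the main ER chaperone and the classical readout of this response, read 11.14, 10.80 and 10.81 in KO mice with MTX and 10.45, 10.93 and 11.03 in untreated KO mice. The arrays without pancreatic RNA, listed first, were the highest of their group with MTX and the lowest untreated. In WT mice Hspa5 read 10.44, 10.72 and 10.49 with MTX and 10.48, 10.67 and 10.65 untreated, and these groups overlapped. Its change was 0.11 ± 0.16 in KO (adjusted p = 0.637) and -0.05 ± 0.16 in WT (adjusted p = 0.915). Between the genotypes after MTX the arrays did not overlap, and KO was 0.37 ± 0.16 above WT (adjusted p = 0.0995). This difference was 0.08 within arrays with pancreatic RNA, 2 against 1, and 0.68 within those without it, 1 against 2.

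Dnajb9, a co-chaperone that binds IRE1 and unfolded proteins, was the chaperone-related member that passed the test. Its signal was 7.99, 7.94 and 7.93 in KO mice with MTX, against 8.17, 8.59 and 8.66 in untreated KO mice. In WT mice it was 7.84, 8.05 and 8.22 with MTX, against 8.31, 8.77 and 8.74 untreated. Treated arrays lay below untreated arrays in both genotypes. Dnajb9 fell by 0.52 ± 0.16 in KO (limma, adjusted p = 0.0262), and the change of -0.57 ± 0.16 in WT, the smallest unadjusted p of the members there (0.00479), did not pass (adjusted p = 0.221). The lone KO arrays without pancreatic RNA differed by -0.19. The KO call ended without replicate 2 or 3 of KO with MTX (adjusted p = 0.0675 and 0.0616) or replicate 2 or 3 of untreated KO (adjusted p = 0.0908 and 0.101).

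The membrane chaperone gene Canx, calnexin, read 10.63, 10.47 and 10.30 in KO mice with MTX and 10.67, 10.41 and 10.64 in untreated KO mice. In WT mice it read 10.47, 10.57 and 10.72 with MTX, against 10.19, 10.14 and 10.32 untreated, and these WT groups did not overlap. Its change was -0.11 ± 0.12 in KO (adjusted p = 0.548) and 0.37 ± 0.12 in WT (adjusted p = 0.294), and the difference of these changes was -0.47 ± 0.17 (adjusted p = 0.0669). The other 8 genes of the class changed by -0.30 to 0.09 in KO mice: Sdf2l1, Dnajc3, Dnajb11, Creld2, Hsp90b1, Hyou1, Calr and Manf.

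The crossing of the 2 kinds of array was widest in Creld2, Hyou1 and Pdia6, which were chosen after their values were seen. Creld2, a secreted ER stress factor, read 9.45, 8.85 and 8.82 in KO mice with MTX and 8.43, 9.42 and 9.52 in untreated KO mice. Hyou1, a large chaperone of the ER lumen, read 9.70, 9.17 and 9.69 in KO mice with MTX and 8.82, 9.83 and 9.99 in untreated KO mice. Pdia6, a disulphide isomerase, read 9.06, 8.25 and 8.45 in KO mice with MTX and 8.26, 8.79 and 8.92 in untreated KO mice. In all 3, the array without pancreatic RNA, given first, was the highest of the treated group and the lowest of the untreated one. The lone arrays without pancreatic RNA differed by 1.02 in Creld2, 0.88 in Hyou1 and 0.80 in Pdia6, and the arrays that held it by -0.64, -0.48 and -0.51. With 1 array on each side, the differences without pancreatic RNA have no replicate check.

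**Figure D4:**
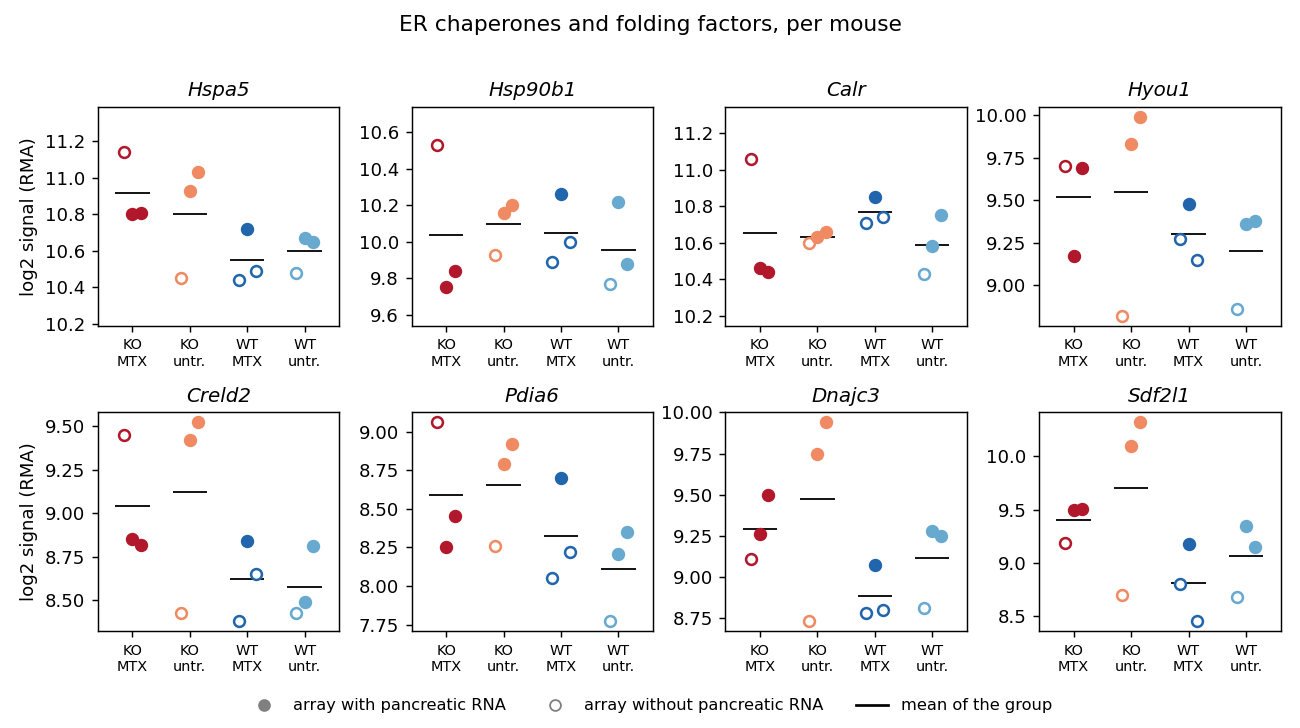
RMA log2 signal (y axis) of 8 chaperone and folding genes in every mouse, in the order KO with MTX, untreated KO, WT with MTX, untreated WT. Filled points are arrays with pancreatic RNA, open points those without, and lines are group means. In Hspa5, Creld2 and Pdia6 the open point is the highest in KO with MTX and the lowest in untreated KO.

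**Figure D5:**
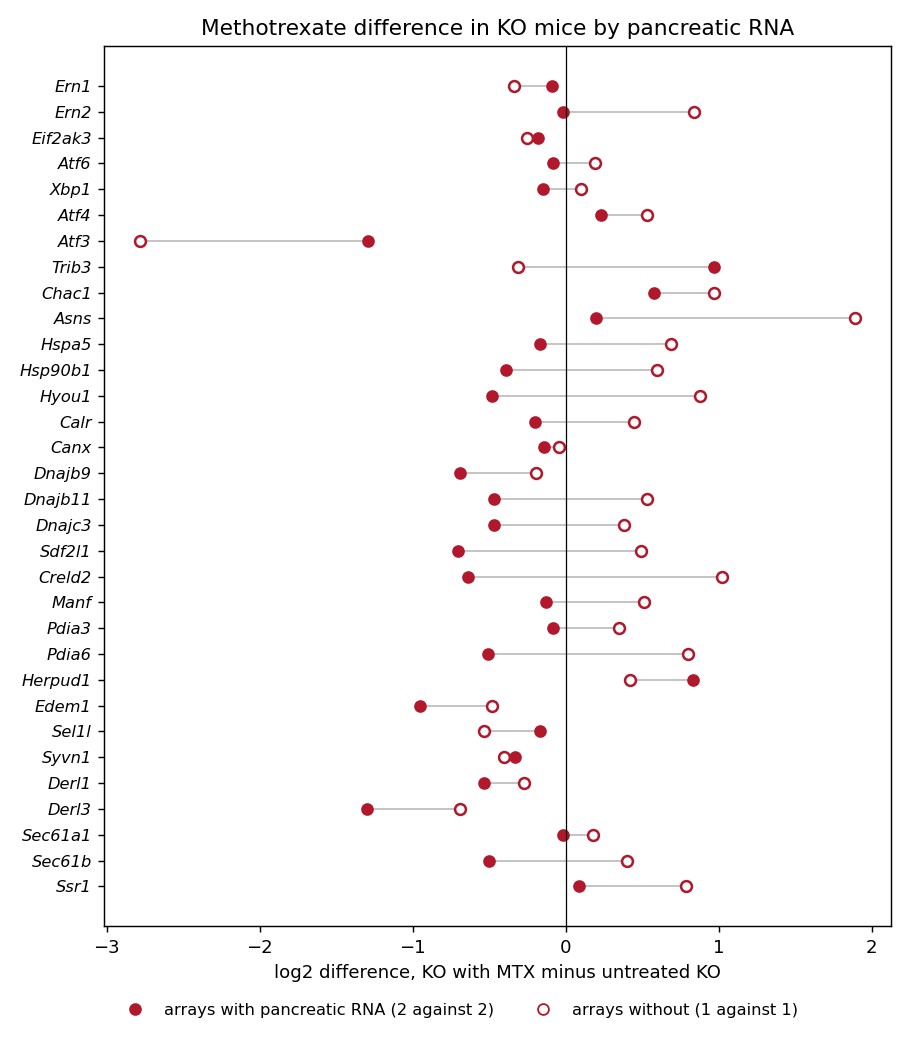
Log2 difference of KO with MTX minus untreated KO (x axis) for each of the 32 members, within the arrays with pancreatic RNA (filled, 2 against 2) and within those without (open, 1 against 1). Chaperone and isomerase genes lay below 0 in the arrays that held it (13 of 13) and above 0 in 11 of 13 in those that did not.

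By the fit within the arrays that held pancreatic RNA, 12 members were called, beside 39.9% of all genes. These were 2 higher, Trib3 and Herpud1, and 10 lower, among them 5 chaperone or co-chaperone genes, beside 21.2% and 18.7% of all genes. Of the 9 members whose promoters held an ERSE, 0 passed in KO mice in the fit of all arrays without the pancreatic term, beside 34.8% of all genes. With the term Derl3 was called lower, beside 37% of all genes. Creld2, Pdia6, Derl3 and Dnajc3 were called lower within the arrays with pancreatic RNA, and the part of the element in this was not tested. The lone arrays without it allow no replicate check, and there Derl3 differed by -0.69 and Hspa5 by 0.69.

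Disulphide isomerases and translocon subunits stayed below the threshold. Pdia3, the isomerase of the calnexin cycle, changed by 0.06 ± 0.14 and Pdia6 by -0.07 ± 0.26 in KO mice. The translocon subunits Sec61a1 and Sec61b changed by 0.04 ± 0.11 and -0.20 ± 0.27, and Ssr1, of the translocon-associated complex, by 0.32 ± 0.16 (adjusted p = 0.143). Across the 12 arrays Sec61a1 ranged from 10.90 to 11.27.

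Among the 6 genes of ER-associated degradation, 2 fell with MTX in KO mice, where 16% of all genes fell. Derl1, a membrane protein of the retrotranslocation channel, read 8.93, 8.79 and 8.73 in KO mice with MTX, against 9.20, 9.30 and 9.28 in untreated KO mice. In WT mice it read 9.33, 9.31 and 9.27 with MTX and 9.34, 9.38 and 9.36 untreated. The 3 KO arrays with MTX were the lowest of all 12, and the other 9 lay between 9.20 and 9.38. Derl1 fell by 0.44 ± 0.09 in KO (limma, adjusted p = 0.00174) and was 0.49 ± 0.09 lower in KO than in WT after MTX (log2 difference -0.49, adjusted p = 0.000821). Its change in WT was -0.06 ± 0.09 (adjusted p = 0.795), and its difference between arrays with and without pancreatic RNA was -0.01 ± 0.07. The lone KO arrays without pancreatic RNA differed by -0.27, and KO with MTX differed from WT with MTX there, 1 array against 2, by -0.36.

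Edem1, which hands misfolded glycoproteins to degradation, read 9.58, 9.88 and 10.05 in KO mice with MTX, against 10.06, 10.80 and 11.03 in untreated KO mice. In WT mice it read 9.68, 9.83 and 9.83 with MTX, against 9.89, 10.29 and 10.31 untreated. Treated arrays lay below untreated ones in both genotypes, in KO narrowly, at 10.05 and 10.06. Edem1 fell by 0.79 ± 0.23 in KO (limma, adjusted p = 0.0175) and changed by -0.38 ± 0.23 in WT (adjusted p = 0.509). The KO call was lost with quantile normalisation (adjusted p = 0.0946) and in a fit of the 2 groups alone (adjusted p = 0.0714), and the lone arrays without pancreatic RNA differed by -0.48. Without replicate 1 of KO with MTX its adjusted p was 0.0589, and without replicate 2 or 3 of untreated KO it was 0.0664 and 0.0738. Sel1l, Syvn1 and Herpud1 changed by -0.29 ± 0.58, -0.36 ± 0.18 and 0.69 ± 0.40 in KO mice and did not pass.

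Derl3 was the member with the largest difference between arrays with and without pancreatic RNA. It read 4.71, 7.62 and 7.94 in KO mice with MTX, 5.40, 9.07 and 9.09 in untreated KO mice, 4.65, 6.56 and 4.48 in WT mice with MTX and 5.19, 7.88 and 7.43 in untreated WT mice. Each array below 6 was one without pancreatic RNA. Herpud1 read 9.61, 10.98 and 11.32 in KO mice with MTX, 9.19, 10.19 and 10.45 in untreated KO mice, 9.67, 9.75 and 9.49 in WT mice with MTX and 9.52, 9.89 and 9.79 in untreated WT mice. The 2 KO arrays with MTX that held pancreatic RNA were the highest.

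In WT mice limma called 0 of the 32 members after MTX, beside 0.0744% of all genes. At an unadjusted p under 0.05 there were 2 members, Dnajb9 and Canx, and 2198 genes (11.7%). The members' median log2 change was -0.05, and that of all genes was 0.00. With the pancreatic term 0 members were called, beside 0.181% of all genes. Within arrays that held pancreatic RNA, 1 with MTX against 2 untreated, there were 4, all lower, beside 4.44% of all genes, 2.09% lower. Enterocyte markers showed 0 of 10 called in WT mice. Members called in KO and not in WT are not thereby shown to differ between genotypes.

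That difference, the MTX effect in KO minus that in WT, passed limma's test for 1 member, Derl1, beside 23.8% of all genes, 12% lower. It was -0.39 ± 0.12 (adjusted p = 0.0389). With the pancreatic term 0 members were called, beside 25.3% of all genes, and the value was -0.38 (adjusted p = 0.0568), while the call was lost in 18 of 24 alternatives in all. Leaving out any array other than replicate 1 of KO with MTX or replicate 1 of untreated KO ended it, with adjusted p-values of 0.0629 to 0.0876. Without replicate 1 of KO with MTX 3 members were called, beside 27.4% of all genes.

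After MTX, KO mice had higher Atf4, Asns and Chac1 and lower Derl1 than WT mice. These were 4 of 32 members (12.5%), beside 36.9% of all genes, 20.2% higher and 16.8% lower. Of the members, 23 differences were above 0 and 9 below, with a median of 0.22, beside 0.00 over all genes. The count on each side of 0 depended on the scaling. Centring gave 15 above 0 and 17 below (median -0.01, beside -0.23 over all genes). Quantile normalisation gave 27 and 5 (median 0.38, beside -0.01 over all genes). In each of these scalings the members' median lay above that of all genes. The count also differed by pancreatic RNA. With the pancreatic term 23 were above 0 and 9 below (median 0.18, beside 0.00 over all genes). Within arrays that held it, 2 against 1, there were 17 and 15 (median 0.11, beside 0.03). Within those that did not, 1 against 2, there were 24 and 8 (median 0.32, beside -0.01). In the fit of all arrays without the term, all 10 enterocyte markers were lower in KO (median -4.01). All 6 fibroblast and all 6 macrophage markers were higher (medians of 1.72 and 2.52), as were 4 of 6 Paneth cell markers (median 1.18). Acinar markers had a median of 2.69 there, with 0 of 11 called. With the pancreatic term 3 of 6 Paneth cell markers were higher (median 0.90), and the acinar median was -0.04. The part of these cells in the members' differences was not tested. Atf4 read 7.12, 6.98 and 7.11 in KO mice with MTX, against 6.55, 6.66 and 6.60 in WT mice with MTX, with no overlap. Its difference was 0.46 ± 0.10 (limma, adjusted p = 0.00423), and 0.45 ± 0.11 with the pancreatic term. Centring ended this call (0.23, adjusted p = 0.181), as did the arrays with pancreatic RNA alone (0.38, adjusted p = 0.0991).

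Asns was 2.02 ± 0.64 higher in KO than in WT mice with MTX (limma, adjusted p = 0.0281) and Chac1 2.18 ± 0.70 higher (adjusted p = 0.0301). Since WT mice with MTX held pancreatic RNA in 1 array of 3 and KO mice in 2, the pancreatic term lowered these differences to 1.53 ± 0.29 (adjusted p = 0.00138) and 1.68 ± 0.39 (adjusted p = 0.00505). Within arrays that held pancreatic RNA they were 1.2 and 2.52, and within those that did not 2.22 and 0.99, each with a single array on 1 side. A trended robust variance ended both calls (adjusted p = 0.0569 for Asns and 0.055 for Chac1). Without the term, leaving out 1 of 4 arrays ended both calls: replicate 2 or 3 of KO with MTX or replicate 1 or 3 of WT with MTX. The adjusted p-values were then 0.0755, 0.0720, 0.102 and 0.0933 for Asns and 0.103, 0.110, 0.0907 and 0.0751 for Chac1.

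With the pancreatic term Eif2ak3 (0.45 ± 0.15, adjusted p = 0.0342) and Herpud1 (0.74 ± 0.27, adjusted p = 0.0498) were called higher too, which made 6 members, beside 37% of all genes. Without it they were 0.64 ± 0.27 (adjusted p = 0.089) and 1.0 ± 0.40 (adjusted p = 0.0768). Quantile normalisation gave 9 members higher and 1 lower, beside 38.5% of all genes called, where the deposited values gave 3 and 1. Single arrays moved the count from 4 to between 2 and 9: it was 9 without replicate 1 of KO with MTX or replicate 1 of untreated KO (38.3% and 37.8% of all genes), and 2 without any one of the 4 arrays named for Asns and Chac1 (31.1% to 33.8% of all genes).

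Between untreated mice of the 2 genotypes limma called 0 of 32 members, beside 0.0106% of all genes, and with the pancreatic term again 0, beside 0.0159%. At an unadjusted p under 0.05 there were 4 members and 1165 genes (6.19%). Of the differences, 29 were above 0 and 3 below, with a median of 0.35, beside 0.02 over all genes, and centring gave 25 and 7 with a median of 0.25. Single arrays moved this median: it was 0.13 without replicate 3 of untreated KO, 0.23 without its replicate 2 and 0.16 without replicate 1 of untreated WT. Markers of secretory cells had medians above 0 in the same comparison, at 0.33 for goblet cells (0.27 to 0.74), 0.33 for acinar cells, 0.48 for islet cells and 0.23 for Paneth cells, and their part was not tested. Within arrays that held pancreatic RNA, 2 against 2, the median was 0.38, and within those that did not, 1 against 1, it was 0.06. The smallest p was that of Ern1, which read 7.63, 7.72 and 7.87 in untreated KO mice, against 7.07, 7.41 and 7.36 in untreated WT mice. Its arrays did not overlap, and the difference was 0.46 ± 0.14 (adjusted p = 0.751). Ern1 read 7.29, 7.70 and 7.70 in KO mice with MTX, against 7.41, 7.48 and 7.30 in WT mice with MTX, with overlap. Canx, whose arrays are given above, was next at 0.35 ± 0.12 (adjusted p = 0.786).

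Other genes of the same pathways were listed by role. These lists were made with earlier results of these data known, so their counts are no independent support. Of 17 further targets of the integrated stress response, 8 rose and 2 fell with MTX in KO mice, beside 18.8% and 16% of all genes, with a median log2 change of 0.73, against -0.02 over all genes. Ddit4, an inhibitor of the growth kinase mTORC1, averaged 9.0 ± 0.75 in KO mice with MTX, against 6.15 ± 0.39 in untreated KO mice (SD, n = 3 each), and rose by 2.85 ± 0.32 (limma, adjusted p = 3.31e-05). Slc7a11, the cystine transporter, averaged 7.49 ± 0.29 in KO mice with MTX, against 4.63 ± 0.83 in untreated KO mice, and rose by 2.86 ± 0.34 (limma, adjusted p = 4.99e-05). Gars, glycyl-tRNA synthetase, rose by 1.05 ± 0.13 (adjusted p = 7.45e-05). With the pancreatic term 10 rose and 2 fell. Between the genotypes after MTX, 11 of the 17 were higher and 2 lower in KO, beside 20.2% and 16.8% of all genes, with a median of 1.0. In WT mice 0 of the 17 passed with MTX, beside 0.0744% of all genes, with a median of 0.10.

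The coat of the vesicles that carry cargo from the ER to the Golgi, COPII, went the other way. Of its 12 genes 1 rose and 8 fell with MTX in KO mice, beside 18.8% and 16% of all genes, with a median of -0.47. Sec23a, an inner coat subunit, averaged 8.65 ± 0.09 in KO mice with MTX, against 10.21 ± 0.15 in untreated KO mice (SD, n = 3 each), and fell by 1.56 ± 0.13 (limma, adjusted p = 3.21e-06). Sar1b, the small GTPase that starts the coat and serves chylomicron export in enterocytes, fell by 1.26 ± 0.12, and Sec24a, the cargo adaptor, fell by 1.26 ± 0.13. These genes fell in the arrays in which enterocyte markers were lower, and the part of cell composition in this was not tested. Counts were the same with the pancreatic term, and in WT mice 0 of 12 passed, beside 0.0744% of all genes.

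Folding, translocation and degradation genes outside the list were mixed, with shares of called genes to be set beside 34.8% of all genes. Among 20 further folding and disulphide genes 3 rose and 4 fell in KO mice: the collagen-folding isomerase gene Fkbp14 rose by 1.34 ± 0.13, while Fkbp2 and P4hb, the founding disulphide isomerase, fell, at -1.11 ± 0.18 and -0.57 ± 0.10. P4hb averaged 10.78 ± 0.07 in KO mice with MTX, against 11.35 ± 0.16 in untreated KO mice (SD, n = 3 each). Fibroblast markers were higher in the same arrays as Fkbp14, and their part in its rise was not tested. Of 24 translocation and N-glycosylation genes 0 rose and 1 fell, Sec62 (-0.53 ± 0.18, adjusted p = 0.042). Of 15 further degradation genes 3 rose and 3 fell, with the ligase gene Rnf5 at -1.69 ± 0.10 (adjusted p = 3.67e-07), Man1b1 at -0.56 ± 0.11 and the conjugating enzyme gene Ube2g2 at 0.72 ± 0.18.

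Of 13 further sensors and regulators 4 rose and 2 fell, beside 18.8% and 16% of all genes. Over all 6 lists 39 of 101 genes were called (38.6%, beside 34.8%). Cebpb, a factor that pairs with ATF4, rose by 1.4 ± 0.17 (limma, adjusted p = 6.59e-05), and Eif2ak4, the amino acid sensing kinase GCN2, by 0.84 ± 0.20 (adjusted p = 0.00598). Creb3l3, a membrane-bound factor of liver and enterocytes, averaged 6.51 ± 1.08 in KO mice with MTX, against 9.56 ± 0.19 in untreated KO mice (SD, n = 3 each), and fell by 3.05 ± 0.39. In WT mice 0 genes of these 4 lists passed with MTX, beside 0.0744% of all genes. Between untreated genotypes 0 of all 6 lists passed, beside 0.0106%.

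Markers of the intestinal secretory cells, in which ER folding genes are high, were called in part with MTX in KO mice, beside 34.8% of all genes. Goblet cell markers showed 0 higher and 2 lower of 7, with a median log2 change of 0.05 (-2.78 to 1.0). Their mean signals were 9.74 to 9.99 in KO mice with MTX, against 10.01 to 10.29 in untreated KO mice. Paneth cell markers showed 1 higher and 0 lower of 6, with a median of -0.53 (-1.48 to 1.85). Their mean signals were 8.95 to 10.44 in KO mice with MTX, against 9.95 to 10.43 in untreated KO mice. Plasma cell markers showed 1 higher and 2 lower of 6, with a median of -0.72 (-1.0 to 1.34). Their mean signals were 5.80 to 6.17 in KO mice with MTX, against 6.13 to 6.64 in untreated KO mice. The part of these cells in the members' changes was not tested.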

How the data were processed

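Total RNA of the proximal jejunum was hybridised to 1 Affymetrix array per mouse. The deposited values are log2 signals per probe set, made by the authors with RMA, per the submitters' processing notes, without a version. No genome build or annotation is given in the sources used here. They were used without further scaling. Of 35556 probe sets, 21218 had 1 gene symbol, 1881 several and 12457 none here; the brightest probe set stood for each of 18820 genes, of which 1386 had several. Array medians were 4.37 to 4.56, and 3 mice per group limit the precision; arrays give no read depth.

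Groups were compared with limma 3.58.1 in R 4.3.3 in 1 fit of 4 group means (8 residual degrees of freedom), with Benjamini-Hochberg adjustment over all genes and a call at adjusted p under 0.05. Values after ± are limma's standard errors unless marked SD. The fit was tested on simulated data. An array was said to hold pancreatic RNA where its acinar marker mean exceeded 8.

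The members and lists were chosen with earlier results of these data known. Values in every array are given for called members, for the 3 smallest p-values where none was called, and for Hspa5, Xbp1, Atf4 and Atf3; up to 3 called genes of each other list are named. Herpud1, Derl3, Creld2, Hyou1 and Pdia6 were added after their values were seen. Of the members, Dnajc3 had 2 probe sets with equal values and Sec61b had 3, of which the brightest was used.

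Whether replicate numbers pair the mice was checked by the correlation of deviations from group means. Between KO with MTX and untreated KO it was 0.50, 0.29 and 0.43, and between untreated KO and untreated WT 0.67, 0.50 and 0.50. Between WT with MTX and untreated WT it was 0.29, 0.53 and -0.49. The numbers follow pancreatic RNA: in every group replicate 1 lacked it and the others held it, except replicate 3 of WT with MTX. Pairing of mice and pancreatic RNA therefore cannot be told apart in these correlations. The labels give no pairing, so the blocked fit is given as an alternative and not as a paired test. Alternatives were a filter on dim genes (below the 25th percentile), averaging all probe sets of a gene, quantile normalisation, centring, a fit of the compared groups alone, a block for the replicate number, a term or covariate for pancreatic RNA, arrays with or without it alone, a trended robust variance, array weights, a minimum log2 change of 1 and leaving out each array.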

Additional observations from a re-analysis of the deposited data

Results flagged for a closer look

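The MTX effect in KO mice minus that in WT mice passed limma's test (adjusted p under 0.05 over all genes) for 1 of 32 members and 20 of the 101 genes of the other pathway lists (19.8%), beside 23.8% of all genes. The 12 pathway genes given here were named for their call with MTX in KO mice, which is part of the same difference, so their number is no support for it. Among the members it was Derl1, at -0.39 ± 0.12 on the log2 scale (adjusted p = 0.0389). Of the vesicle coat, Sec23a differed by -1.65 ± 0.18 (adjusted p = 6.49e-05), Sec24a by -1.49 ± 0.18 (adjusted p = 0.000128) and Sar1b by -1.47 ± 0.17 (adjusted p = 9.21e-05). Of the folding genes, Fkbp2 differed by -1.03 ± 0.26 (adjusted p = 0.0128), P4hb by -0.74 ± 0.15 (adjusted p = 0.00319) and Fkbp14 by 0.94 ± 0.19 (adjusted p = 0.00361). Of the degradation genes, Rnf5 differed by -1.72 ± 0.15 (adjusted p = 1.17e-05) and Man1b1 by -0.58 ± 0.16 (adjusted p = 0.0173). Of the regulators and stress targets, Slc7a11 differed by 2.83 ± 0.48 (adjusted p = 0.00117), Ddit4 by 1.99 ± 0.45 (adjusted p = 0.00728), Cebpb by 1.03 ± 0.24 (adjusted p = 0.00929) and Creb3l3 by -3.15 ± 0.56 (adjusted p = 0.00152). Positive values mean a higher effect in KO mice.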

How the results depend on the processing

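With 3 mice per group and pancreatic RNA unevenly spread, small changes cannot be resolved. The arrays without it rest on 1 KO mouse per group, with a spread from 2 WT mice. They support no call, and calls within them enter only the totals of single member values given last. For MTX in KO mice 5 members were called. The count was 3 with only the groups compared (28.4% of all genes), 12 within arrays with pancreatic RNA (39.9%) and 9 with array weights (48.4%). It was 1 with a minimum log2 change of 1 (14.8%), and 2 to 6 leaving out single arrays (29.4% to 35.3%). For MTX in WT mice, where 0 were called by limma, it was 5 with array weights (9.67%) and 0 leaving out any array (0% to 0.515%). For KO against WT after MTX, with 4 called, it was 10 with quantile normalisation (38.5%), 8 with the replicate block (37.1%), 10 and 11 within arrays with and without pancreatic RNA (36.6% and 35.3%), 2 with a trended robust variance, 14 with array weights (47.6%), 2 with the minimum change, and 2 to 9 leaving out single arrays. For untreated KO against WT, with 0 called by limma, it was 2 within arrays with pancreatic RNA (0.414%) and 3 with array weights (2.96%). Leaving out any array gave 0 (0.00531% to 0.0319%). For the difference of the MTX effects 1 was called. The count was 0 with quantile normalisation (24.6%), the replicate block (23.8%), the pancreatic term (25.3%) or the acinar covariate (25.6%). It was also 0 with a trended robust variance (23.2%) or the minimum change (15.1%). It was 2 with centring (24.2%), 8 with array weights (39.7%), and 0 to 3 leaving out single arrays (20.3% to 27.4%). Within arrays with or without pancreatic RNA some groups held a single array, so no count is given. A fit of only the groups compared could not be run for this difference. Centring moved the median of all genes between the genotypes after MTX to -0.23. In the replicate block, Atf4 in KO mice and Derl1 in the difference of effects (adjusted p = 0.0537 and 0.074) lost their calls, and 9 of 12 arrays correlated best with an array of their own number. Of single member values under all alternatives, fits within arrays without pancreatic RNA included, 0 of those called reversed and 60 lost their call. Calls were gained by 110, of which 6 had the opposite sign, and 249 others changed sign without a call. The causes were not tested.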
